A study of Homo sapiens with 21 samples.

Results

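Tubulin genes encode the alpha and beta subunits that pair and polymerise into microtubules. The set described here comprised 10 of the 58735 genes in the deposited expression table, chosen by gene symbol as the alpha genes TUBA1A, TUBA1B, TUBA1C and TUBA4A and the beta genes TUBB, TUBB2A, TUBB2B, TUBB3, TUBB4B and TUBB6. They were followed over 21 RNA-seq libraries of MDA-MB-453, an established ERBB2-expressing breast cancer cell line that is wild type in the labels. The cells were plated in serum, moved to charcoal-stripped serum, and then treated in 7 groups of 3 libraries. The groups were an untreated control, calcium at 10 mM, cadmium at 10 µM, GSK4716 at 5 µM, diethylstilbestrol (DES) at 10 µM, DES followed by calcium (DES+calcium), and DES followed by cadmium (DES+cadmium). Every treatment lasted 24 h, and in the combinations DES was added 3 h before the metal, so those cells saw DES for longer than the cells given DES alone. GSK4716 is an agonist and DES an inhibitor of the estrogen-related receptor ESRRB, the receptor the study asked about. GSK4716 and DES were dissolved in ethanol. Serum was absent from the medium during the calcium and GSK4716 treatments, whereas cadmium was given with some stripped serum left in. Medium and vehicle of the control, and the medium of DES alone, are not given in the sources used here, so medium and treatment cannot be told apart in the comparisons between them. The labels do not say whether replicates were separate cultures, and p-values therefore measure the spread between these libraries, which may be technical.

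Cells hold tubulin mRNA in balance with the pool of unassembled tubulin, a process called tubulin autoregulation. When free tubulin rises, the factor TTC5 recognises the first residues of a tubulin chain as it leaves the ribosome, and it acts with SCAPER and CNOT11 to bring the CCR4-NOT deadenylase complex to that mRNA, which is then degraded. Drugs that depolymerise microtubules are the classical trigger, and DES is known to bind tubulin and disturb microtubules apart from its action on receptors. A newly made chain is folded by prefoldin and the chaperonin TRiC, and the tubulin cofactors TBCA to TBCE then assemble the alpha-beta dimer.

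The start of the coding sequence is shown because it encodes the stretch that the decay machinery reads. TTC5 requires methionine, arginine and glutamate, followed by isoleucine in beta and cysteine in alpha tubulins. The first 30 coding bases are given from the annotated GENCODE release 44 transcripts on GRCh38, with the first 12 bases, the first 4 codons, in capitals. They begin at base 49265182 of chromosome 12 for TUBA1C (plus strand), 219253858 of chromosome 2 for TUBA4A (minus), 30720507 and 3157463 of chromosome 6 for TUBB (plus) and TUBB2A (minus), 137241361 of chromosome 9 for TUBB4B (plus) and 42609738 of chromosome 17 for TUBG1 (plus). An intron follows the first 3 coding bases in the alpha members and the first 57 in the beta members. TUBA1A and TUBA1B have the same 30 bases as TUBA1C, and gamma tubulin TUBG1 is given for contrast.
TUBA1C: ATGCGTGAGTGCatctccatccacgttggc
TUBA4A: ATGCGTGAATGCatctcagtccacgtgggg
TUBB: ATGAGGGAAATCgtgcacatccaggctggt
TUBB2A: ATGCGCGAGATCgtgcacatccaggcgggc
TUBB4B: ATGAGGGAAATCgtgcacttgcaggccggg
TUBG1: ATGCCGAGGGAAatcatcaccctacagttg
The first 4 codons of all 10 members encoded the recognised start, by 6 different spellings of the 12 bases. TUBB and TUBB4B were spelled alike over these 12 bases. The start was found in 0 of the 4 gamma, delta and epsilon tubulin genes read.

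TUBA1B, TUBA1A and TUBA1C lie side by side on chromosome 12 of GRCh38, from 49127782 to 49274603. TUBA1A and TUBA1C overlap there on opposite strands. TUBB2A (chromosome 6, 3153669 to 3157526) and TUBB2B (chromosome 6, 3224261 to 3231730) are also neighbours, and TUBB is elsewhere on chromosome 6 (30720201 to 30725426). TUBA4A is on chromosome 2 (219249711 to 219278170), where the gene STK16, at a mean of 10.0 FPKM, overlaps it on the opposite strand. TUBB4B is on chromosome 9 (137241213 to 137243707), TUBB3 on 16 and TUBB6 on 18. Values are gene-level fragments over exons, and the labels name both a directional and a non-directional library chemistry, so reads of overlapping genes on opposite strands may not be separated. Close copies may also share reads. TUBB2A and TUBB2B were identical at 98.1% of aligned coding bases, and 48.7% of the 150-base windows of the TUBB2A transcript also occurred in a transcript of another tubulin gene or pseudogene, mostly TUBB2B. The same share was 19.2% for TUBA1B, 7.22% for TUBA1C, 2.66% for TUBB, shared mostly with the pseudogene TUBBP1, and 0% for TUBA4A and TUBB4B, so the levels of TUBA1A, TUBA1B, TUBA1C, TUBB2A and TUBB2B carry this uncertainty.

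The libraries held from 14435925 to 28424805 fragments on genes, with a median of 18314738. All 9 luminal markers of this line were present, with ERBB2 at 97.2 to 210 FPKM. Of 9 markers of other cell types or lines, COL1A1 reached 32.7 FPKM and the other 8 stayed at or below 0.699 FPKM. The summed level of 18 G2/M phase genes, which are needed for mitosis, was 306 to 506 FPKM in the control, 133 to 245 with calcium, 161 to 419 with GSK4716, 582 to 600 with DES and 578 to 612 with DES+calcium. It was 5.06 FPKM in cadmium replicate 3 against 315 and 336 in the other cadmium libraries, and 17.2 FPKM in DES+cadmium replicate 2 against 510 and 845. These libraries stand apart from their groups, and the values of tested members with an unadjusted p under 0.05 in cadmium comparisons are given with and without them, while levels, shares, non-overlap counts and values without a filter include them. Mitochondrial genes took 7.70 to 8.19% of fragments in the control, 4.88 to 7.55% with calcium and 1.97 to 5.31% in the 9 libraries given DES. DES+cadmium replicate 1 was scaled by a library size 0.693 times its fragments on genes, the lowest of the 21 libraries.

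TUBB4B and TUBB made up nearly all beta tubulin mRNA in the untreated cells, and TUBA1B most of the alpha tubulin mRNA. FPKM, fragments per kilobase of exon scaled to library size, divides by a gene length given with the values. That length exceeded the annotated transcript unequally, at 3574 against 1627 bases for TUBA1B and 2111 against 1563 bases for TUBB4B. Levels of different genes are therefore compared only roughly. In the control libraries TUBB4B, a beta isotype present in most tissues, was at 354, 420 and 289 FPKM. TUBB, the widely expressed class I beta isotype, was at 252, 324 and 196 FPKM. TUBA1B, the main alpha isotype of dividing cells, was at 138, 199 and 96.6 FPKM. TUBA1C and TUBA4A followed at means of 44.1 ± 8.77 and 18.03 ± 0.757 FPKM (SD, n = 3).

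TUBB2A, a beta isotype abundant in neurons, was at 1.31 ± 0.211 FPKM in the control, and the neuronal alpha isotype TUBA1A at 0.428 ± 0.0930 FPKM (SD, n = 3). TUBB2B, TUBB3 and TUBB6 were near the limit of detection. They held at most 30, 24 and 23 fragments in any library, and each was at 0 fragments in at least 1, which still allows up to 3 fragments. They fell below the filter of a mean of 0.5 FPKM over the 21 libraries and were left out of the main test, so 7 of the 10 members entered the tests below. TUBA1A passed at a mean of 0.666 FPKM only because of the calcium group, without which its mean over 18 libraries was 0.433 FPKM.

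**Figure D1:**
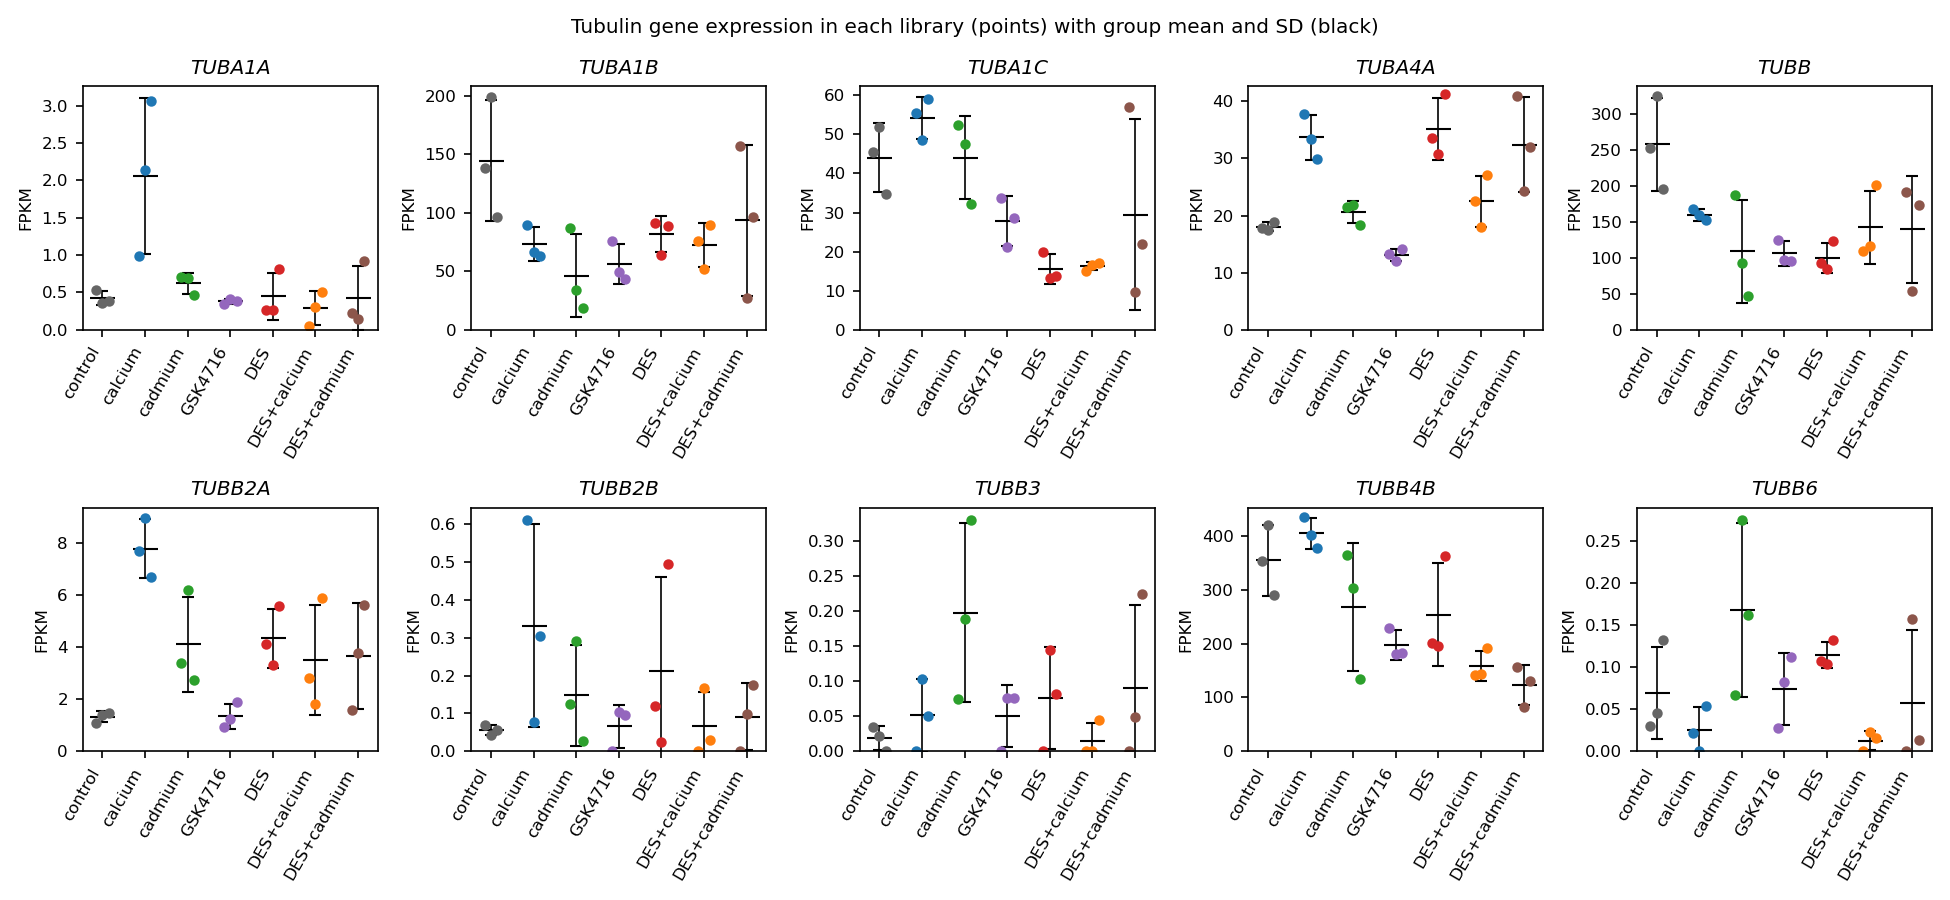
Expression of the 10 tubulin genes in FPKM (vertical axes, linear and separate for each gene) by group, with a point for each library, a black dash for the group mean and bars for its SD (n = 3; bars are cut at 0). TUBB4B reaches 435 and TUBB 324 FPKM, whereas TUBB2B, TUBB3 and TUBB6 stay below 1 FPKM in all 21 libraries; all 3 DES libraries lie below the control for TUBA1C and TUBB and above it for TUBA4A and TUBB2A.

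With DES the isotypes TUBA1C and TUBB were lower and the isotypes TUBA4A and TUBB2A were higher than in the control. The test was limma on log2(FPKM + 0.1) with Benjamini-Hochberg adjustment over the 14686 genes that passed the filter, and a gene was called at an adjusted p under 0.05. By this rule 4 of 7 tested members were called in DES against control, 2 higher and 2 lower. Of all genes tested 29.6% were called, 16.7% higher and 12.9% lower, so calls were common everywhere in this comparison.

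TUBA1C was at 45.6, 52.0 and 34.6 FPKM in the control libraries and at 20.03, 13.2 and 13.7 FPKM with DES. The ranges did not overlap, and the log2 fold change was -1.497 ± 0.23 (SE, adjusted p = 0.00509), a 2.82-fold lower level. TUBB was at 252, 324 and 196 FPKM in the control and at 92.6, 84.1 and 123 FPKM with DES. Every DES library was below every control library for TUBB, with a log2 fold change of -1.36 ± 0.25 (SE, adjusted p = 0.00896), and the call was lost without the filter on low values (adjusted p = 0.0681).

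TUBA4A, an alpha isotype prominent in platelets and neurons, was at 17.8, 17.4 and 18.9 FPKM in the control and at 33.5, 30.7 and 41.2 FPKM with DES. The control libraries lay close together, and all 3 DES libraries lay above them. Its log2 fold change was 0.95 ± 0.16 (SE, adjusted p = 0.00636), a 1.93-fold higher level. TUBB2A was at 1.07, 1.40 and 1.47 FPKM in the control and at 4.12, 3.31 and 5.56 FPKM with DES. The groups did not overlap, at 42 to 60 against 107 to 161 fragments, and the log2 fold change was 1.63 ± 0.26 (SE, adjusted p = 0.00589).

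TUBA1B was at 138, 199 and 96.6 FPKM in the control and at 91.7, 63.9 and 89.0 FPKM with DES. The ranges were separate but close, and the log2 fold change of -0.78 ± 0.29 (SE) was not called (adjusted p = 0.0834). It was called without control replicate 3 (log2 fold change -1.04, adjusted p = 0.0437). TUBB4B was at 202, 195 and 363 FPKM with DES. DES replicate 3 lay within the control range, and the log2 fold change of -0.53 ± 0.30 (SE) was not called (adjusted p = 0.216), whereas without that library it was -0.82 (adjusted p = 0.0472). TUBA1A was at 0.271, 0.265 and 0.812 FPKM with DES, around the control level, and its fitted change had no stable sign (log2 fold change -0.07, adjusted p = 0.929). In all, 5 of the 7 tested members did not overlap between the groups, beside 48.8% of all genes tested. Over the tested members the median log2 fold change was -0.53, against 0.05 over all genes tested. When libraries were scaled by their total fragments on genes, the median over all genes moved to -0.12, the split over all genes became 1861 higher and 2539 lower in place of 2447 and 1893, and the called members kept their directions.

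**Figure D2:**
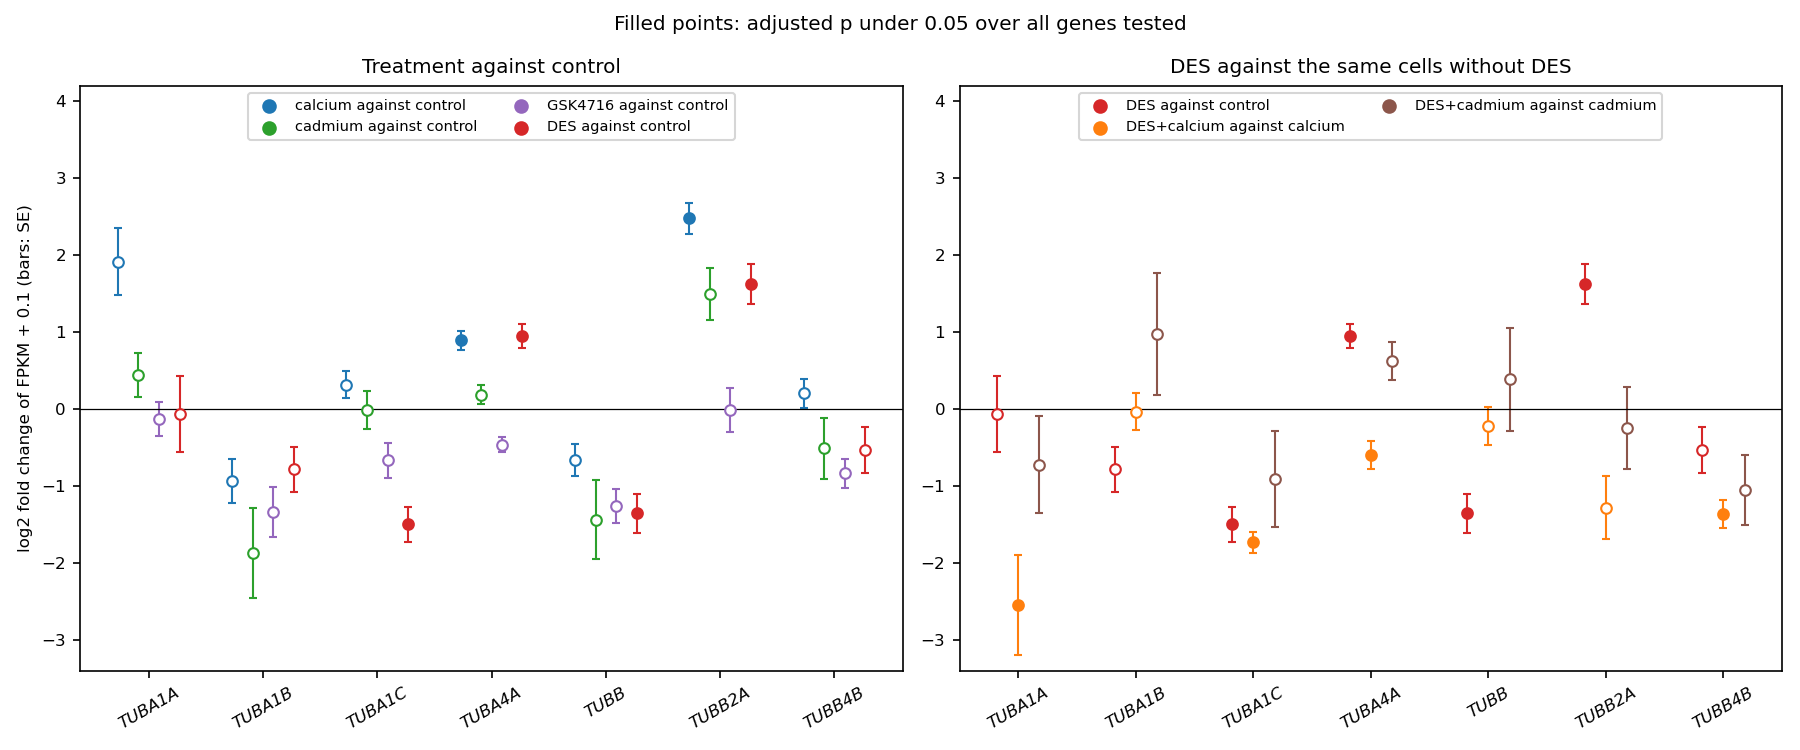
Log2 fold changes of FPKM + 0.1 (vertical axis; bars are SE, 3 libraries a group) of the 7 tested tubulin genes (horizontal axis) for each treatment against control (left) and for DES against the matching group without DES (right); filled points have an adjusted p under 0.05. On the left TUBA4A and TUBB2A are called higher with both calcium and DES; on the right TUBA4A and TUBB2A lie above 0 for DES alone and below 0 for DES+calcium, where the filled TUBA1A point is a gene that passed the filter only through its calcium libraries.

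The changes moved the makeup of the tubulin mRNA pool. TUBA4A supplied 6.49 to 12.5% of the summed alpha FPKM in the control and 23.0 to 28.5% with DES, and TUBA1C 19.3 to 23.0% and 9.44 to 13.8%. TUBB supplied 40.2 to 43.5% of the summed beta FPKM in the control and 24.9 to 31.0% with DES, with TUBB4B making up most of the rest. None of these ranges overlapped between the groups. The summed FPKM of the 10 members was 638 to 1015 in the control and 391 to 637 with DES, so the lowest control library lay just above the highest DES library. Fewer tubulin mRNA molecules in each cell and a changed mixture of cells cannot be told apart in bulk libraries. The shares and sums are given as descriptions, with no test. The mitochondrial share of fragments, 3.47 to 4.96% with DES, also lay below the control, and its part in the tubulin values was not tested.

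**Figure D3:**
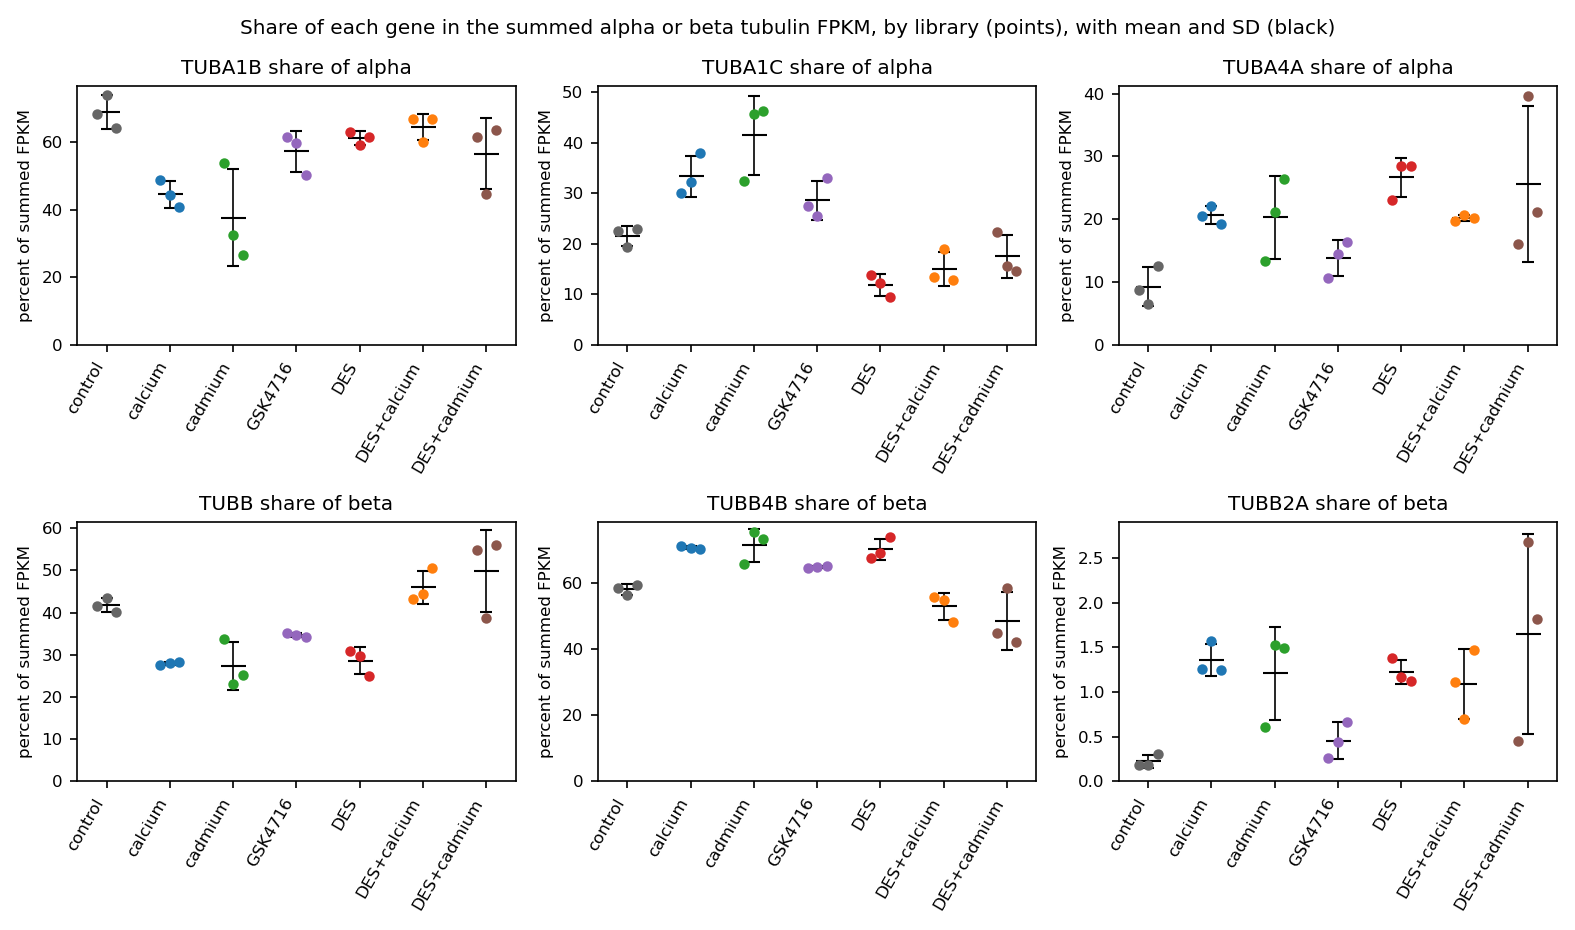
Share of 3 alpha genes (top) and 3 beta genes (bottom) in the summed FPKM of the 4 alpha or 6 beta members, in percent (vertical axes from 0), by group, with a point for each library and the mean and SD in black. The TUBB share is 40.2 to 43.5% in the control, at most 35.2% in the 9 calcium, GSK4716 and DES libraries, and 43.2 to 50.5% in the DES+calcium libraries.

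With calcium TUBB2A and TUBA4A were higher than in the control, and no tested member was called lower. Of the tested members 2 of 7 were called, both higher, where 7.12% of all genes were called and 4.60% called higher. TUBB2A was at 7.68, 8.94 and 6.70 FPKM with calcium against 1.07 to 1.47 FPKM in the control. This was the largest called change of a member against the control in these data, a log2 fold change of 2.48 ± 0.20 (SE, adjusted p = 0.00865) or 5.57-fold. TUBA4A was at 37.7, 33.4 and 29.96 FPKM with calcium against 17.4 to 18.9 FPKM, all above the control, with a log2 fold change of 0.89 ± 0.12 (SE, adjusted p = 0.0165). Both calls rested on the full set of libraries. Without control replicate 1 neither was called (adjusted p = 0.0560 for TUBB2A and 0.0869 for TUBA4A). TUBA4A alone was lost without control replicate 2 (0.0783), without calcium replicate 2 (0.0577), without the filter (0.0702), and with the replicate number as a block (0.0694).

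TUBA1A was at 0.982, 2.14 and 3.07 FPKM with calcium and at 0.360 to 0.534 FPKM in the control. The groups were apart, at 75 to 235 against 22 to 59 fragments, and the log2 fold change of 1.92 ± 0.44 (SE) was not called (adjusted p = 0.0558). Since TUBA1A passed the filter only through its calcium libraries, this is given as a value. TUBA1B, at 63.3 to 89.6 FPKM with calcium, and TUBB, at 152 to 168 FPKM, were each below every control library, with log2 fold changes of -0.94 and -0.66 that were not called (adjusted p = 0.117 and 0.121). Limma-voom called TUBA1B lower (adjusted p = 0.0423). The study, which normalised read counts with DESeq2, lists TUBA1B among the genes lower with calcium, cadmium and GSK4716 alike. The 18 G2/M genes had a median log2 fold change of -1.31 in this comparison, 3 of them called lower beside 2.53% of all genes, and their part in the tubulin values was not tested. Apart from TUBA1A, which passed the filter only through its calcium libraries, 4 of 6 tested members did not overlap between calcium and control, where 29.6% of all genes tested did not. TUBB4B (378 to 435 FPKM) and TUBA1C (48.5 to 59.0 FPKM) overlapped the control. With calcium the 3 libraries placed TUBB at 27.5 to 28.3% of beta FPKM, a narrow range below that of the control.

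With cadmium the tubulin libraries spread widely, and 0 of 7 tested members were called, where 0.150% of all genes tested were. At an unadjusted p under 0.05 there were 3 members, TUBA1B, TUBB and TUBB2A, and limma-voom on the recovered fragments also called 0 members, though it called 634 of 15317 genes. TUBA1B was at 86.6, 33.9 and 18.4 FPKM, below every control library, and TUBB at 187, 93.1 and 46.3 FPKM. Cadmium replicate 3, with the low G2/M sum, was the lowest library of its group for both and for TUBB4B, at 365, 304 and 135 FPKM. TUBB2A was at 3.37, 6.18 and 2.75 FPKM, above the control in all 3 libraries, with a log2 fold change of 1.496 ± 0.34 (SE, adjusted p = 0.0829). Non-overlap was seen for 3 of 7 tested members, where 34.4% of all genes tested showed it. Without cadmium replicate 3 the log2 fold change was -1.35 for TUBA1B, -0.93 for TUBB and 1.73 for TUBB2A, with adjusted p of 0.198, 0.225 and 0.0955. Without cadmium replicate 1, which holds the high values, it was -2.47 for TUBA1B and -1.94 for TUBB, and both were called (adjusted p = 0.0348 and 0.0433). TUBB3, the neuronal class III beta isotype, held 6, 17 and 24 fragments in the cadmium libraries against 5, 2 and 0 in the control, at levels of at most 0.330 FPKM. In the fit without a filter it was not called (log2 fold change 1.24, adjusted p = 0.359).

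With GSK4716 all 7 tested members had a fitted value below the control, and none was called. No gene of the 14686 was called in this comparison (0%), although 2404 had an unadjusted p under 0.05. Limma-voom called 88 genes, with TUBB among them (adjusted p = 0.0407). TUBB was at 125, 97.1 and 95.7 FPKM, a log2 fold change of -1.26 ± 0.22 (SE, adjusted p = 0.142). TUBA1B was at 76.0, 49.6 and 43.6 FPKM, with a log2 fold change of -1.34 ± 0.32 (SE, adjusted p = 0.180). The study's own analysis of read counts lists TUBA1B as lower with GSK4716. TUBB4B was at 230, 181 and 182 FPKM and TUBA4A at 13.2, 11.96 and 14.1 FPKM. For these 4 genes and TUBA1C (33.8, 21.2 and 28.6 FPKM) every GSK4716 library lay below every control library. This made 5 of 7 tested members without overlap, where 22.1% of all genes tested did not overlap and 11.5% did so in the lower direction. TUBB2A, at 0.916 to 1.87 FPKM, and TUBA1A, at 0.347 to 0.412 FPKM, overlapped the control. The median log2 fold change was -0.67 over the tested members and 0 over all genes. GSK4716 gave the lowest group mean of TUBA4A of the 7 groups, and the only one below the control. The G2/M genes were also lower at the median in this comparison (log2 fold change -0.50 over 18 genes, 0 called), and their part in the tubulin values was not tested.

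In cells given calcium, TUBA1C, TUBA4A and TUBB4B were called lower with DES and no tested member was called higher. They were 3 of the 6 members tested apart from TUBA1A, in a comparison of DES+calcium with calcium in which 35.1% of all genes were called, 18.5% higher and 16.5% lower. TUBA1A passed the filter only through its calcium libraries, so its lower value is a description and is not counted. TUBA1C was at 15.2, 16.5 and 17.1 FPKM against 55.4, 48.5 and 59.0 FPKM with calcium alone, a log2 fold change of -1.73 ± 0.13 (SE, adjusted p = 0.00167). TUBB4B was at 142, 144 and 191 FPKM against 435, 401 and 378 FPKM, a log2 fold change of -1.36 ± 0.18 (SE, adjusted p = 0.00350). These calls of TUBA1C and TUBB4B held in every alternative and with each library left out. TUBA4A was at 22.5, 18.005 and 27.0 FPKM against 29.96 to 37.7 FPKM, with a log2 fold change of -0.59 ± 0.19 (SE, adjusted p = 0.0469). TUBA1A was at 0.0540, 0.311 and 0.512 FPKM, with a log2 fold change of -2.54 ± 0.65 (SE) that rests on 3 to 27 fragments a library with DES+calcium.

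The call of TUBA4A was less firm. It was lost when calcium replicate 1, 2 or 3 or DES+calcium replicate 1 or 2 was left out (adjusted p = 0.131, 0.108, 0.0608, 0.114 and 0.116). The call was also lost without the filter (0.177) and with the replicate number as a block (0.0646). TUBB2A, at 2.82, 1.82 and 5.86 FPKM, was below calcium alone in all 3 libraries and just missed the threshold (log2 fold change -1.28 ± 0.41 (SE), adjusted p = 0.0503). It was called in 6 of 14 alternatives, among them the one without DES+calcium replicate 3 (adjusted p = 0.0132). TUBA1B and TUBB overlapped between the groups, and their levels were 52.2 to 89.2 and 110 to 201 FPKM with DES+calcium. Apart from TUBA1A, 4 of 6 tested members and 50.8% of all genes did not overlap here.

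The effect of DES differed with calcium for TUBA4A and TUBB2A, which were higher with DES in cells without added metal. In a test of that difference, the interaction of calcium with DES, 2 of 7 members were called, both lower, where 3.63% of all genes were called and 2.38% called lower. For TUBA4A the DES effect with calcium minus that without was -1.54 ± 0.24 on the log2 scale (SE, adjusted p = 0.0100). For TUBB2A it was -2.91 ± 0.50 (SE, adjusted p = 0.0153). The group means show the pattern, with TUBA4A at 18.03, 33.7, 35.1 and 22.5 FPKM and TUBB2A at 1.31, 7.77, 4.33 and 3.50 FPKM in control, calcium, DES and DES+calcium. Each agent alone gave a called increase over the control. The combination lay below calcium alone for both genes, and its libraries overlapped those of DES alone for TUBB2A but not for TUBA4A. For TUBB the difference was 1.13 ± 0.36 (SE) and was not called (adjusted p = 0.109). TUBA1C showed a like decrease by DES with and without calcium, and its difference of -0.23 ± 0.27 (SE, adjusted p = 0.681) does not show that they are equal.

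Calcium added on top of DES called 0 of 7 tested members, where 0.136% of all genes were called, and limma-voom called 0 of all 15317 genes it tested. Of the tested members TUBA4A alone had an unadjusted p under 0.05, at 22.5, 18.005 and 27.0 FPKM with DES+calcium against 33.5, 30.7 and 41.2 FPKM with DES. It did not overlap between the groups, nor did TUBB4B (142 to 191 against 195 to 363 FPKM), and these 2 of 7 stand beside 19.9% of all genes. With the replicate number as a block, since same-numbered libraries deviated together here, 3 members had an unadjusted p under 0.05. They were TUBA4A (-0.65 ± 0.11), TUBB4B (-0.63 ± 0.17) and TUBB (0.48 ± 0.15; all SE), with adjusted p of 0.205, 0.250 and 0.277, and 0 of all genes tested were called in place of 20. TUBB was higher with DES+calcium than with DES in each of the 3 pairs, and took 43.2 to 50.5% of beta FPKM with DES+calcium and 24.9 to 31.0% with DES. In this measure the combination was near the control, whereas the TUBA4A share of alpha, 19.8 to 20.7%, was above it. TUBB6, at 10, 8 and 9 fragments with DES, held 0, 2 and 1 with DES+calcium. It was below the filter, and in the fit without a filter it was not called (log2 fold change -0.93, unadjusted p = 0.00435, adjusted p = 0.434 over all genes in the limma fit).

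Cadmium added on top of DES also called 0 of 7 tested members, where 0.266% of all genes were called, and limma-voom called 0 of all genes. TUBB4B was at 156, 82.0 and 130 FPKM with DES+cadmium against 195 to 363 FPKM with DES, the only tested member without overlap, beside 16.2% of all genes. It had the only unadjusted p under 0.05 among the tested members, also with the replicate block (adjusted p = 0.193, with 0 of all genes called in place of 39), with a log2 fold change of -1.03 ± 0.37 (SE, adjusted p = 0.400), and of -0.77 without DES+cadmium replicate 2, the library with the low G2/M sum. TUBA1C was at 56.9, 9.63 and 21.9 FPKM and TUBA1B at 157, 27.4 and 96.0 FPKM with DES+cadmium. These spans exceed those of every other group, with the lowest value in replicate 2 and the highest in replicate 1, the library with the lowest scaling ratio.

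In cells given cadmium, DES called 0 of 7 members, where 9.89% of all genes were called, and limma-voom called 0 members among 1859 of 15317 genes. TUBA4A, the only tested member without overlap (1 of 7, beside 40.0% of all genes), was at 41.0, 24.3 and 32.0 FPKM against 21.5, 21.9 and 18.4 FPKM with cadmium alone. Its log2 fold change was 0.62 ± 0.25 (SE, adjusted p = 0.138), with 0.55 without cadmium replicate 3 and 0.82 without DES+cadmium replicate 2. The interaction of cadmium with DES called 0 members, where 1.18% of all genes were called, and limma-voom called 0 members among 80 genes. At an unadjusted p under 0.05 there were 2, TUBB with a difference of 1.74 ± 0.76 and TUBB2A with -1.87 ± 0.61 (SE, adjusted p = 0.251 and 0.140). That count was 1 without cadmium replicate 3 and 4 without DES+cadmium replicate 2, and it ranged from 1 to 4 over all libraries left out in turn. Without cadmium replicate 3 the difference was 1.24 for TUBB and -2.11 for TUBB2A (adjusted p = 0.435 and 0.164), and without DES+cadmium replicate 2 it was 2.32 and -1.98 (adjusted p = 0.0785 and 0.122). Over all genes the median log2 fold change of DES+cadmium against cadmium was -0.08, and -0.39 when libraries were scaled by total fragments, with 359 genes called higher and 1043 lower in place of 699 and 754.

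Across the 7 groups, the order of the group means differed by isotype. TUBA1B and TUBB were highest in the control, and TUBB did not overlap the next group, calcium. TUBB2A was highest with calcium and did not overlap the next group. The same order for TUBA1A is a description only, since TUBA1A passed the filter only through its calcium libraries. TUBA4A was highest with DES, and its range overlapped those of calcium and DES+cadmium next in order. TUBA1C was lowest with DES and DES+calcium, whose ranges overlapped each other and lay below that of GSK4716. TUBB4B was highest with calcium and lowest with DES+cadmium. TUBA4A in the control did not overlap GSK4716, the lowest group, and all other neighbours in the order of a tested member overlapped. The ratio of summed beta to summed alpha FPKM was 2.78 to 3.23 in the control and fell outside that range most in DES+cadmium, at 1.37, 2.28 and 2.05. Its level depends on the gene lengths used for the alpha and beta genes.

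Of 8 further alpha and beta tubulin genes, none reached the filter, and the highest level in any library was 0.778 FPKM, of TUBA3D. The table held 37 tubulin pseudogenes, of which TUBBP5 alone had a mean of at least 1 FPKM (2.77). Gamma tubulin nucleates microtubules and does not carry the recognised start. TUBG1 was at 15.3, 20.6 and 15.1 FPKM in the control and 18.7, 16.5 and 15.5 FPKM with DES, and these overlapped (log2 fold change 0.00 ± 0.18 (SE), adjusted p = 0.992). In calcium-treated cells it was called higher with DES (0.59, adjusted p = 0.0152). TUBG2 rose with DES (log2 fold change 0.63, adjusted p = 0.0316). TUBD1, delta tubulin of the centriole, was at 4.95, 5.27 and 3.74 FPKM in the control and 1.58, 1.25 and 1.20 FPKM with DES, a log2 fold change of -1.72 ± 0.23 (SE, adjusted p = 0.00324). Of these 4 genes 1 was called higher and 1 lower with DES, beside 16.7% and 12.9% of all genes. In calcium-treated cells 2 were called higher with DES and 1 lower, beside 18.5% and 16.5% of all genes. They were TUBG1 and epsilon tubulin TUBE1 (1.49, adjusted p = 0.00750), and TUBD1 (-1.42, adjusted p = 0.0190). With calcium alone TUBG2 was called higher than in the control (0.97, adjusted p = 0.0359).

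The genes of the tubulin mRNA decay pathway moved in both directions with DES. Of 12 measured, 3 were called higher and 4 lower, beside 16.7% higher and 12.9% lower among all genes. The median log2 fold change was 0.12, and 0.05 over all genes. TTC5, which reads the nascent tubulin chain, was at 1.77, 1.31 and 1.497 FPKM in the control and 4.10, 5.89 and 5.47 FPKM with DES. All DES libraries lay well above the control, and the log2 fold change was 1.69 ± 0.23 (SE, adjusted p = 0.00334). TTC5 was also called higher by DES in calcium-treated cells (1.34, adjusted p = 0.0164) and in cadmium-treated cells (2.48, adjusted p = 0.0305). In cadmium-treated cells 0 genes were called with the replicate number as a block, or without any 1 of the 3 cadmium libraries or DES+cadmium replicate 3. The TTC5 value there was 2.32 without cadmium replicate 3 (adjusted p = 0.0901) and 2.58 without DES+cadmium replicate 2 (adjusted p = 0.0480). CNOT11, the CCR4-NOT subunit that receives the signal, was at 20.5, 20.03 and 22.1 FPKM in the control and 8.93, 6.94 and 6.54 FPKM with DES. It moved opposite to TTC5, with a log2 fold change of -1.48 ± 0.17 (SE, adjusted p = 0.00188), and was called lower by DES in calcium-treated cells too (-1.30, adjusted p = 0.00252). In cadmium-treated cells CNOT11 was not called. Its value there was -0.68 without cadmium replicate 3 and -0.47 without DES+cadmium replicate 2 (adjusted p = 0.197 and 0.252). SCAPER, the adaptor between TTC5 and CNOT11, was at 0.624, 0.713 and 0.568 FPKM in the control and 0.586, 1.09 and 0.884 FPKM with DES, and was not called (adjusted p = 0.460). The deadenylase subunits CNOT6 (-1.04) and CNOT6L (-0.87) were also called lower, and CNOT8 (0.80) and CNOT3 (0.63) higher.

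Genes for tubulin folding rose more often than they fell. Of 20 measured, 8 were called higher with DES and 0 lower, with a median log2 fold change of 0.55 beside 0.05 over all genes, of which 16.7% were called higher. The largest were the prefoldin subunits PFDN2 (1.54 ± 0.21, adjusted p = 0.00362) and PFDN4 (1.02 ± 0.19, adjusted p = 0.00905) and the cofactor TBCC (0.81 ± 0.17, adjusted p = 0.0126; all SE). In calcium-treated cells 16 of the 20 were called higher by DES and 0 lower, beside 18.5% of all genes called higher. In cadmium-treated cells 2 were called higher and 0 lower, beside 4.76% of all genes, and 0 were called without cadmium replicate 3 or without DES+cadmium replicate 2. Prefoldin and TRiC fold actin and other proteins as well as tubulin. Among enzymes that modify tubulin, 1 of 10 tested was called higher (SVBP, the partner of the vasohibin detyrosinases, 1.08) and 0 lower. Of 18 tested proteins that bind or regulate microtubules, MAP1A was called higher (1.81, adjusted p = 0.0281) and the plus-end protein CLASP1 lower (-0.78, adjusted p = 0.0277).

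**Figure D4:**
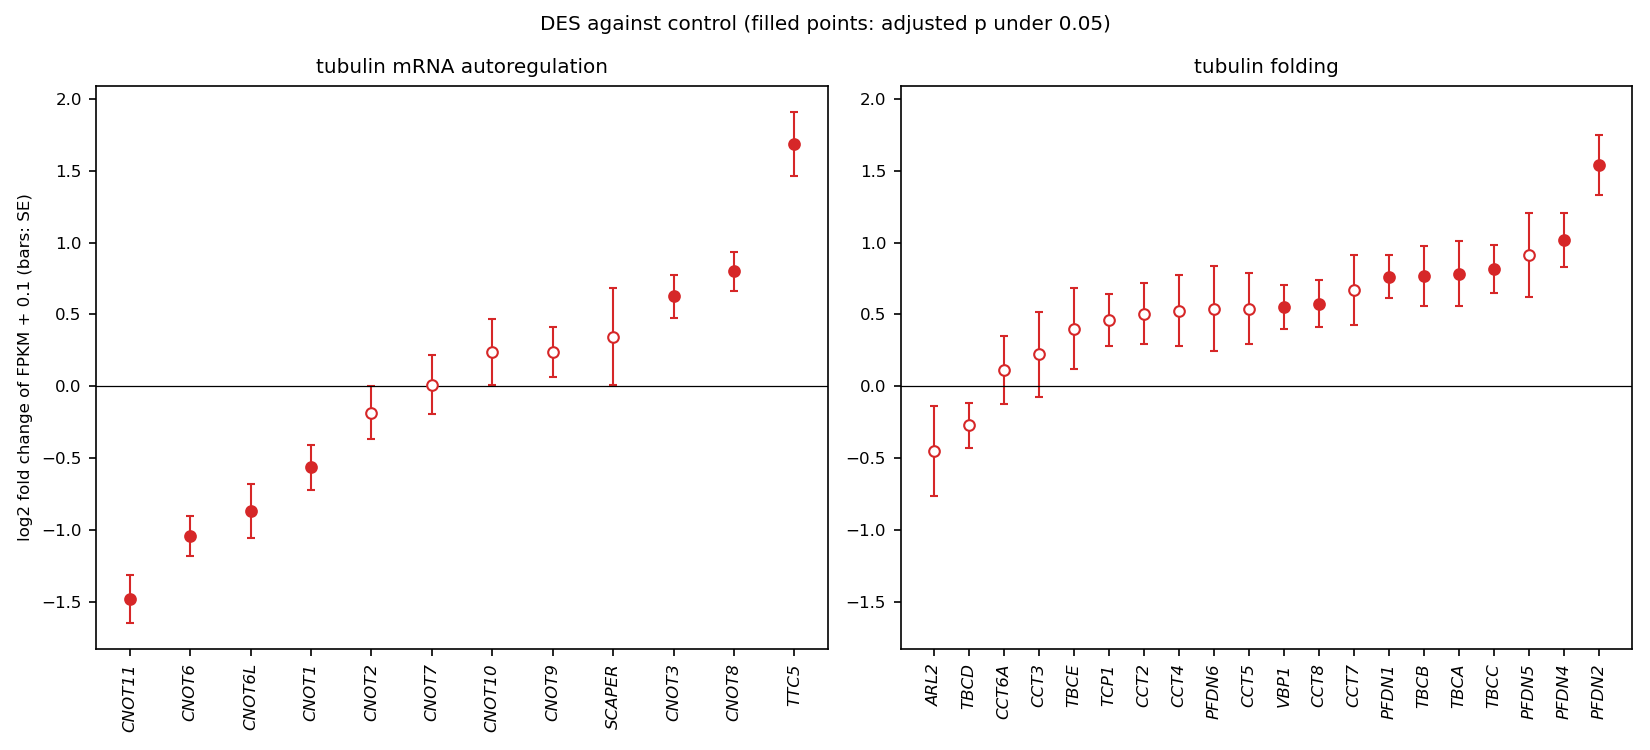
Log2 fold changes of FPKM + 0.1 for DES against control (vertical axis; bars are SE, 3 libraries a group) of 12 genes of tubulin mRNA decay (left) and 20 of tubulin folding (right), ordered by value; filled points have an adjusted p under 0.05. TTC5 is highest and CNOT11 lowest on the left, and 18 of the 20 folding genes lie above 0 on the right.

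Of the 18 G2/M genes, 5 were called higher with DES (16.7% of all genes were) and 0 lower, led by UBE2C (1.16), KIF20A (1.01) and CDC20 (0.94). The other 13 were not called, and 8 of the 18 had a fitted value below 0, down to -1.003 for CENPF (adjusted p = 0.373), with a median of 0.24. Against calcium, 13 of the 18 were called higher with DES+calcium, beside 18.5% of all genes. The part of the cell cycle in the tubulin values was not tested. Of the 9 luminal markers 3 were called lower with DES, beside 12.9% of all genes, among them FOXA1 (-1.17) and GATA3 (-1.11), 0 were called higher and 6 were not called, with KRT18 at 0.69 and KRT8 at 0.68. The genes whose profile over the 21 libraries was most like the mean z score of the tested members were FDPS (Pearson r = 0.817), EXOG (0.810), MFGE8 (0.805), PLXND1 (0.779) and SFN (0.774), given as a description over libraries that share groups and scaling. With TUBA1A left out of the mean, EXOG (0.827), MFGE8 (0.760) and PLXND1 (0.758) stayed among the 5 most like, and FDPS (0.751) and SFN (0.701) did not.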

How the data were processed

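RNA-seq was analysed in 21 poly(A)-selected MDA-MB-453 libraries. Per the labels and the study's methods, reads were aligned with HISAT2 2.0.5 to GRCh38.p14 and counted with featureCounts 1.5.0-p3, and the values deposited by the authors are FPKM per gene. The authors' use of fragments assigned per gene leaves FPKM in whole-fragment steps, and 100% of values gave whole fragments (tolerance 0.1), from which depth was taken. No pair of libraries shared the same fragments in more than 4.97% of genes. How multi-mapped reads were counted is not given in the sources used here.

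Genes with a mean of at least 0.5 FPKM over all libraries (14686, with 7 of the 10 members) were tested with limma 3.58.1 in R 4.3.3 (two-sided, empirical Bayes with trend) on log2(FPKM + 0.1), which understates changes of low genes. Only the groups compared entered a fit, and p-values were adjusted by Benjamini-Hochberg with a threshold of 0.05. The fit was tried on simulated data with the same dispersion for every gene and library. The groups here differed in spread, with a median SD of log2 values from 0.216 in control to 0.520 in DES+cadmium. The simulation does not cover this. Alternatives were a pseudocount of 1, no filter, a minimum of 2 FPKM, median-ratio scaling, limma-voom on recovered fragments (mean of at least 10), all groups in one fit, the replicate number as a block, and each library left out. Scaling by total fragments on genes was added after seeing the data. Same-numbered libraries deviated together in DES+calcium against DES (correlations of 0.132, 0.103 and 0.280) and DES+cadmium against DES (0.472, 0.121 and 0.313), where every pair exceeded 0.1. The pairing comes from the data only, and the block left 0 members called in both. In DES+calcium against calcium the correlations were also all positive (0.102, 0.0582 and 0.159).

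The members, gene lists and alternatives were chosen with earlier results of these data known. All members are named. Of each companion list the called genes of DES against control with the largest changes are named, at most 3 a direction, with TTC5, SCAPER, CNOT11 and TUBG1 always, pseudogenes with a mean of at least 1 FPKM, and the 5 genes most like the members. Names beyond this rule were chosen after their values were seen. List genes were matched by symbol and gene ID. Coding starts were read from MANE Select transcripts. Python 3.11.15 with pandas 2.3.3 was used. One result among the luminal markers is not reported here.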

Additional observations from a re-analysis of the deposited data

Results flagged for a closer look

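The effect of DES on TUBA4A and on TUBB2A differed between cells with and without added calcium by a test of the difference itself, the interaction term. For TUBA4A the log2 effect of DES was 0.95 without and -0.59 with calcium, a difference of -1.54 (adjusted p = 0.0100), and the call held in all 20 alternatives (adjusted p from 0.00688 to 0.0343). For TUBB2A it was 1.63 without and -1.28 with calcium, a difference of -2.91 (adjusted p = 0.0153), and 19 of 20 alternatives kept the call (adjusted p from 0.00613 to 0.0638). The DES+calcium cells also saw DES for 3 h longer, and this cannot be told apart from the combination.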

How the results depend on the processing

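The number of tubulin genes called in calcium against control was 2 and became 1 without a filter, 4 with limma-voom, 1 with the replicate block, and 0 to 3 with 1 library left out, where the 4 and the 3 include TUBA1A. In DES against control it was 4 and ranged from 3 to 5, since TUBB lost its call without a filter (adjusted p = 0.0681), TUBA1B gained one in 3 alternatives (lowest adjusted p = 0.0437) and TUBB4B in 1 (0.0472). Other counts that moved were cadmium against control (0, but 2 with all groups in one fit and 0 to 2 with 1 library left out), GSK4716 against control (0, but 1 with limma-voom), DES+calcium against calcium (4 with TUBA1A included, but 2 without a filter and 2 to 6 with 1 library left out), DES+cadmium against cadmium (0, but 2 with all groups in one fit) and the interaction of calcium with DES (2, but 1 without a filter). Without a filter 45127 genes entered the fit in place of 14686. In DES against control the members with an unadjusted p under 0.05 then went from 5 to 4. Why the counts moved was not tested. The fitted change of TUBA1A in DES against control changed sign, at 0.0029 with a pseudocount of 1 and -0.50 to 0.16 with 1 library left out. With the replicate block TUBA4A lost its call in calcium against control (adjusted p = 0.0694), where same-numbered libraries had correlations of 0.0434, 0.0412 and -0.0692. It also lost its call in DES+calcium against calcium (adjusted p = 0.0646), where the correlations were all positive (0.102, 0.0582 and 0.159). No other call of a member was lost with the block. The calls of TUBA1C, TUBA4A and TUBB2A in DES against control held in all 14 alternatives.

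Counts over all genes moved further. Without a filter they fell from 1046 to 60 (calcium), 4340 to 2106 (DES), 5148 to 2320 (DES+calcium against calcium), 1453 to 132 (DES+cadmium against cadmium) and 533 to 208 (interaction of calcium). Cadmium called 22 genes, but 1605 without cadmium replicate 1, 634 with limma-voom and 1026 with all groups in one fit. Leaving out 1 library gave 7 to 758 for calcium, 1930 to 5078 for DES and 0 to 1052 for DES+cadmium against cadmium, which was also 0 with the replicate block. The interaction of calcium called 183 genes higher and 350 lower, but 46 and 135 without control replicate 2, and 309 and 521 without DES replicate 1. The interaction of cadmium called 35 higher and 138 lower, but 0 and 15 without DES replicate 2, and 93 and 317 without DES+cadmium replicate 2. TUBB2B, TUBB3 and TUBB6 had no more than 30 fragments in a library, and none was called in any comparison without a filter (adjusted p of at least 0.359).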
